A study of Mus musculus with 6 samples.

Results

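The immediate early genes are those that cells switch on within minutes of a growth factor signal or a mechanical or chemical stress, before any new protein has been made. The set described here holds 10 of them: Fos, Junb, Atf3, Egr1, Egr2, Ier2, Nr4a1, Nr4a3, Dusp1 and Zfp36. They were chosen by symbol from the probe annotation, as genes that respond to MAPK signals and to dissection, and with earlier results of these arrays known. The brightest probe, by mean log2 intensity over the 6 arrays, was to be kept where a gene had several. This mean level is the only measured value in the rule, and levels are therefore given as a description. All 10 had a probe that names no other gene, and each had exactly 1 such probe, so brightness decided nothing. They stand among 13840 genes with a probe of their own and 33012 probes in all.

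The tissue was presomitic mesoderm, the strip of unsegmented cells behind the newest somite, dissected from mouse embryos at embryonic day 10.5 and frozen in liquid nitrogen. Embryos with an Nrarp allele in which LacZ stands in place of the coding region (Nrarp knockout) were compared with wild-type littermates. Both came from matings of heterozygous mice. Their strain and sex are not stated in the labels. Each genotype has 3 arrays, numbered 1 to 3, and 12 presomitic mesoderms were collected per genotype. How these were shared among the arrays is not stated, so the spread between arrays may be technical. In bulk tissue, fewer cells of a type and less RNA per cell cannot be told apart.

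Values are intensities that the authors scaled to a median just under 1 on each array (0.981 to 0.993), so an intensity of 1 is the level of the middle probe of the array. The replicate 1 arrays stood apart in both genotypes. Their 75th percentiles were 8.88 and 9.71, against 4.90 to 5.88 on the other 4 arrays. Wild-type replicate 1 correlated more closely with knockout replicate 1 (r = 0.975 over all probes) than with the other wild-type arrays (0.910 and 0.917). Differences are therefore given over all arrays and also within replicate numbers. Nrarp itself read 318, 429 and 448 on the wild-type arrays and 14.3, 42.5 and 23.3 on the knockout arrays (limma adjusted p = 0.428 without and 0.00042 with a block for replicate number).

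Most immediate early genes wait with polymerase and bound factors already at their promoters. Receptor signals such as those of FGF run through RAS and the kinases ERK1 and ERK2 to ternary complex factors, which sit with serum response factor on CArG boxes, while cyclic AMP and stress signals act through CREB and its relatives on the cyclic AMP response element (CRE). The proteins that follow fall into transcription factors (the AP-1, EGR and NR4A families) and brakes that end the response (Dusp1 and Zfp36). In presomitic mesoderm FGF-driven ERK activity is high at the tail end and is part of the machinery that places somite borders. Several of these genes are also known to be induced by the handling of tissue, which makes them a common check on dissected samples.

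Promoters of 8 of the 10 genes were matched by gene ID in RefSeq (build GRCm38.p6). Each of the 6 printed here has a match to a CArG box or to a CRE, in full or as its core, and they cover each role in the set. Each is the run of 250 bases that ends just before the annotated start site, on the gene's own strand, with capitals at CArG boxes, at the full CRE (TGACGTCA), at its core (TGACG, on either strand) and at TATAAA.
Nr4a3 (chr4:48045055-48045304, plus strand): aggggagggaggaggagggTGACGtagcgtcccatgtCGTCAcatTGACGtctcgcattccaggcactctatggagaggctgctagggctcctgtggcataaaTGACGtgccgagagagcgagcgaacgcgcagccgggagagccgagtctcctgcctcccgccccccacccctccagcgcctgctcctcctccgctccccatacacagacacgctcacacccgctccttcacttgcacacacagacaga
Nr4a1 (chr15:101266596-101266845, plus strand): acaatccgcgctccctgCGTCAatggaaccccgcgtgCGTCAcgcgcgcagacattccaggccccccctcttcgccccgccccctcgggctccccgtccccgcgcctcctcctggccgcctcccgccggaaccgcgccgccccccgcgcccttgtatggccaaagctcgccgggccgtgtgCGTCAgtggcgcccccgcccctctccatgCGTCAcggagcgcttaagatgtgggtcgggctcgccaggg
Fos (chr12:85473640-85473889, plus strand): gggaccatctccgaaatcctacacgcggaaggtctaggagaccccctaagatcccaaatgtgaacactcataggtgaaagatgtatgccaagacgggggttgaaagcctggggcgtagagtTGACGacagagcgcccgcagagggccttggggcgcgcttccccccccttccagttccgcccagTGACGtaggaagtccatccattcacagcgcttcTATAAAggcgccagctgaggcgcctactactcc
Dusp1 (chr17:26508473-26508722, minus strand): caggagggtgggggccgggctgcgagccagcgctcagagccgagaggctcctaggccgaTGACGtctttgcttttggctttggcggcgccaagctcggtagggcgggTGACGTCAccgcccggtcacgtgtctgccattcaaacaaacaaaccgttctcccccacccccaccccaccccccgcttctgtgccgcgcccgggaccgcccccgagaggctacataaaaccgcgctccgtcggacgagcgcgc
Egr2 (chr10:67537619-67537868, plus strand): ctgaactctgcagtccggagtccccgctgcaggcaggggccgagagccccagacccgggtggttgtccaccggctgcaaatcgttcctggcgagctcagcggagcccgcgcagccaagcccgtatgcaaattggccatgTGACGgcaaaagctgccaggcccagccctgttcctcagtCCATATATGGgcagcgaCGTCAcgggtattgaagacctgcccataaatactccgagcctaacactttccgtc
Zfp36 (chr7:28379229-28379478, minus strand): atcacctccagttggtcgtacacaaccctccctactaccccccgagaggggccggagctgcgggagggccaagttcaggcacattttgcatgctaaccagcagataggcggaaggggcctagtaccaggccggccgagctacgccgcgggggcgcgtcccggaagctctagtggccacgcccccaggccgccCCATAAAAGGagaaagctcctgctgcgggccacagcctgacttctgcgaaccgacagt

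In these windows, extended to 50 bases past the start site, a CArG box was found in 2 of the 8 genes. It begins at -58 relative to the start of Zfp36 and at -72 relative to the Egr2 start that is printed. Egr2 has 5 annotated starts, some of them close enough to share this box. The full CRE was found in Dusp1 only, from -143 to -136 relative to the start. The CRE core was found in 7 of 8 genes, with 4 copies each in Nr4a1 and Nr4a3, and a full CRE counts as 2 overlapping cores. TATAAA was found in Fos, at -33 from the start, and in Junb, right at the start. Here a gene counts if any of its annotated starts has the match, while the shares over all are of single promoter entries, so the measures are unlike. Over all 32851 promoters of this length, on both strands, the CArG box was found in 1.63%, the full CRE in 1.79%, the CRE core in 20.8% and TATAAA in 13.6%. GGGCGG, the site of SP1, was found in 7 of the 8 genes and 35.7% of all promoters. Egr2 counted for it only through starts other than the one printed. GCGGGGGCG, the site of EGR factors, was found in Nr4a1 and Zfp36 and 2.91% of all. TGANTCA, the site of AP-1, was found in 0 of 8 and 7.81% of all. A match of letters is a description of the window and does not show that a factor is bound. Sequence beyond the window was not searched, so a gene without a match here may have that element farther out. Egr1 and Ier2 had no promoter entry.

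**Figure D1:**
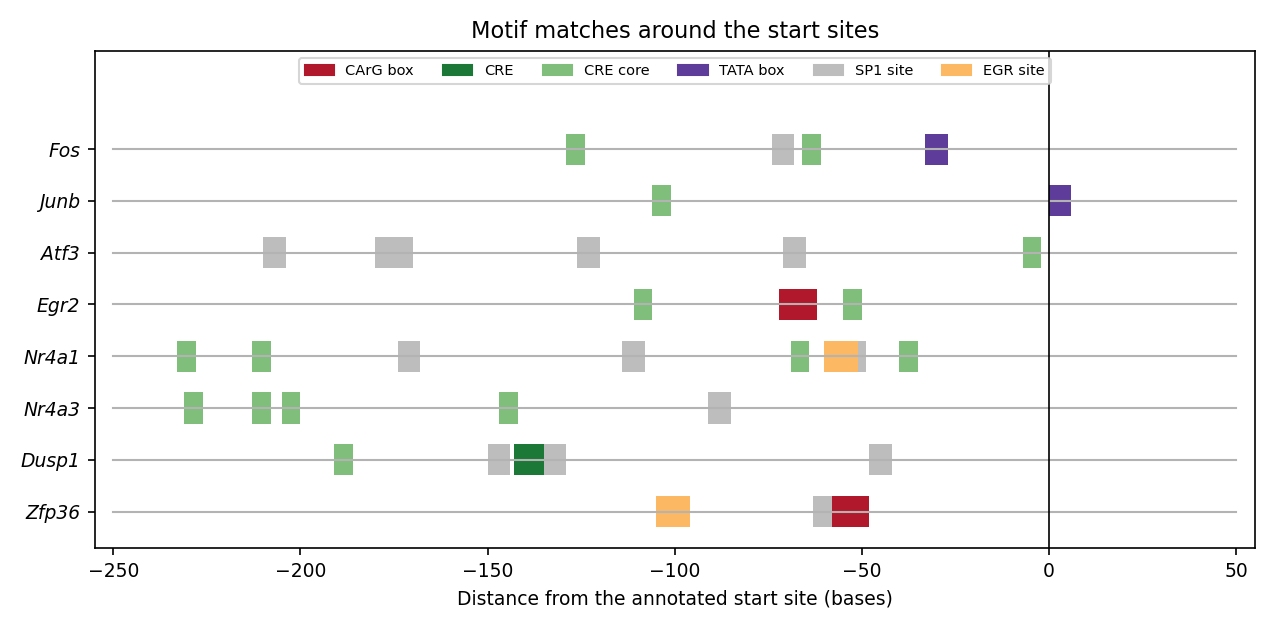
Motif matches from 250 bases before to 50 bases after the annotated start site in the 8 genes with a promoter entry, by distance from the start in bases, with 1 of the 5 Egr2 starts shown. Coloured blocks are matches on either strand. The CArG boxes lie in Egr2 and Zfp36, the full CRE in Dusp1, and the CRE cores in every gene but Zfp36.

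Between the genotypes none of the 10 genes passed the test. The measured differences ran from -0.93 (Egr2) to 0.24 (Fos) on the log2 scale, knockout minus wild type. Of the 10 differences, 6 were negative and 4 positive, with a median of -0.13, beside a median of -0.01 over all probes. In limma 0 of the 10 passed an adjusted p of 0.05 over all probes, where the share of probes called was 0%. A block for replicate number again gave 0 of 10, beside 0.00606% of all probes. At an unadjusted p under 0.05 the counts were 0 of 10 without the block (0.657% of probes) and 1 of 10 with it, namely Nr4a3, which was lower (3.75% of probes in either direction and 1.99% lower). Only Nr4a3 had groups that did not overlap, being lower in the knockout, which held for 1.74% of all probes, or 3.78% counting either direction.

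Fos and Junb supply the bZIP partners that make up AP-1, a dimer that binds DNA and drives the second wave of genes. The Fos probe read 0.592, 1.13 and 0.767 on the wild-type arrays and 0.573, 0.778 and 1.92 on the knockout arrays, in replicate order. It stayed close to the array median on 5 arrays, and knockout replicate 3 was the highest. On the log2 scale the genotypes differed by 0.24 (95% interval -1.12 to 1.61 in limma, exact permutation p = 0.8), with -0.05, -0.54 and 1.32 within the replicate numbers. Without knockout replicate 3 it was -0.26, so the sign rested on that array.

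Junb, which pairs with Fos, read 2.54, 0.987 and 0.960 on the wild-type arrays and 1.95, 0.396 and 1.13 on the knockout arrays. The replicate 1 arrays were the highest in both genotypes and the groups overlapped. The estimated difference, in log2, was -0.49 (95% interval -2.14 to 1.16 in limma, exact permutation p = 0.6). Within the replicate numbers it was -0.38, -1.32 and 0.23, and it was 0.14 without knockout replicate 2.

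Atf3, a bZIP factor of the CREB family that is induced by stress and dampens transcription, was the steadiest of these bZIP genes. It read 5.91, 8.04 and 7.34 on the wild-type arrays and 7.11, 7.83 and 8.39 on the knockout arrays. The log2 difference was 0.14 (95% interval -0.61 to 0.90 in limma, exact permutation p = 0.5). Within the replicate numbers it was 0.27, -0.04 and 0.19. With the replicate block the interval was -0.28 to 0.56, which is 0.822-fold to 1.48-fold. Among the other AP-1 genes, named here as kin of the set and after their values were seen, Jun averaged 49.97 ± 13.9 across wild-type arrays (SD, n = 3) and 51.0 ± 11.5 across knockout arrays (SD, n = 3). The log2 differences were 0.05 for Jun, 0.41 for Fosb, 0.33 for Fosl1, -0.11 for Fosl2 and 0.03 for Jund, and none passed.

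Egr1 and Egr2 encode zinc finger factors, of which Egr1 is a sensitive reporter of ERK activity and Egr2 is best known from hindbrain segments and Schwann cells. Egr1 read 1.18, 0.967 and 0.569 on the wild-type arrays and 1.10, 0.726 and 0.469 on the knockout arrays. Each knockout array lay below the wild-type array of the same number, by -0.10, -0.41 and -0.28, but the groups overlapped almost fully. The knockout differed from wild type by -0.26 (95% interval -1.51 to 0.98 in limma, exact permutation p = 0.6), and it was 0.05 without knockout replicate 3.

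Egr2 had the most negative difference of the set, from a dim probe. It read 0.291, 0.774 and 0.494 on the wild-type arrays and 0.166, 0.265 and 0.369 on the knockout arrays. All 6 values lay below the array medians, where the authors' background handling, which is not given, weighs most. The knockout was lower within each number, by -0.82, -1.54 and -0.42, but its replicate 3 lay above wild-type replicate 1. On the log2 scale the genotypes differed by -0.93 (95% interval -2.25 to 0.39 in limma, exact permutation p = 0.2), and with the replicate block the interval was -1.91 to 0.05. The kin Egr3 and Egr4, also dim, differed by -0.55 and 0.41.

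Ier2, a small nuclear protein of the early growth factor response, was bright and the most even of the 10 across arrays. It read 73.8, 64.5 and 59.3 on the wild-type arrays and 74.7, 71.1 and 64.9 on the knockout arrays. The groups overlapped, and each knockout array was slightly above the wild-type array of its number, by 0.02, 0.14 and 0.13 in log2. The log2 difference was 0.10 (95% interval -0.46 to 0.65 in limma, exact permutation p = 0.4), and the blocked interval was -0.15 to 0.34. Its relatives Ier5 and Ier5l differed by -0.01 and 0.15. Ier5l, whose product is little studied, averaged 17.8 ± 0.913 across wild-type arrays (SD, n = 3) and 19.7 ± 0.176 across knockout arrays (SD, n = 3). The Ier5l groups did not overlap, which held for 3.78% of all probes in either direction.

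Nr4a1 and Nr4a3 encode orphan nuclear receptors, which act without a known natural ligand and are induced by cyclic AMP, calcium and growth factors. Nr4a3 was the only member of the set whose groups were apart. It read 40.1, 32.1 and 51.5 on the wild-type arrays and 30.5, 20.5 and 28.4 on the knockout arrays. The lowest wild-type array (32.1) lay just above the highest knockout array (30.5), so the gap was narrow beside the spread within either group. Means were 41.2 ± 9.72 (SD, n = 3) and 26.4 ± 5.25 (SD, n = 3).

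The log2 difference of Nr4a3 was -0.63, a level 1.55-fold higher in wild type. Without the block the limma 95% interval was -1.37 to 0.10 (adjusted p = 1.00). With the replicate block it was -0.95 to -0.32, which is 1.25-fold to 1.93-fold, with an unadjusted p of 0.00141 and an adjusted p of 0.999 in limma. The exact permutation test gave p = 0.1, the smallest that 3 against 3 arrays allow. The difference was -0.39 within replicate 1, -0.65 within replicate 2 and -0.86 within replicate 3, and -0.75 in replicates 2 and 3 alone (limma adjusted p = 0.995). All these estimates had the same sign, and none passed over all probes. The block takes replicates 2 and 3 as matched by number, which these arrays do not establish.

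Macrophage markers are given beside Nr4a3 by a choice made after their values were seen. Of the 5 measured, 2 had differences of the same sign, which does not set them apart. Differences were negative for 6 of 8 gut endoderm, 5 of 7 primitive blood, 5 of 8 neural tube and 5 of 9 presomitic markers. They were negative for 4 of 8 surface ectoderm and 2 of 8 endothelial markers. Of 5 measured macrophage markers of 8 listed, Aif1 and Lyz2 also had groups that did not overlap, with the knockout lower, beside 1.74% of all probes. Aif1, a calcium-binding protein of microglia and macrophages, averaged 1.22 ± 0.448 across wild-type arrays (SD, n = 3) and 0.555 ± 0.128 across knockout arrays (SD, n = 3). The Aif1 probe was dim, between the 17.4th and 60.7th percentile of its arrays. Lyz2, the lysozyme of myeloid cells, averaged 6.05 ± 0.938 and 4.12 ± 1.08 in the same order (SD, n = 3 each). The other 3 had positive differences (Ptprc 0.42, Fcgr3 0.29, Adgre1 0.05), and the summed level of all 5 was 39.8 to 60.0 in wild type and 39.0 to 63.7 in the knockout. Most of that sum came from Adgre1, at 30.2 to 54.8 over the 6 arrays. The pan-leukocyte gene Ptprc stayed below the median on every array, at 0.191 to 0.881. The part of such cells in the Nr4a3 values was not tested.

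Nr4a1 had its own pattern, with 4.63, 2.31 and 3.45 on the wild-type arrays and 5.24, 2.87 and 3.63 on the knockout arrays. Within each number the knockout was the higher, by 0.18, 0.31 and 0.07, but the groups overlapped over most of their range. Its log2 difference came to 0.19 (95% interval -0.83 to 1.21 in limma, exact permutation p = 0.7), and its sign turned when either wild-type replicate 2 (-0.07) or knockout replicate 1 (-0.05) was left out. Nr4a2, the remaining NR4A receptor, differed by 0.06. Nr4a1 and Nr4a3 have 4 CRE cores each, shown above, at mostly different positions. Their genotype differences had opposite signs, and the difference between the 2 genes was not tested.

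Dusp1 and Zfp36 end the response. Dusp1 removes phosphate from p38, JNK and ERK kinases in the nucleus. It read 17.4, 50.6 and 46.9 on the wild-type arrays and 18.2, 45.2 and 50.02 on the knockout arrays. The replicate 1 arrays were far below the others in both genotypes, while the genotypes matched closely within each number (0.07, -0.16 and 0.09). The knockout differed from wild type by -0.00 (95% interval -1.28 to 1.28 in limma, exact permutation p = 1.0). With the replicate block the interval narrowed to -0.29 to 0.29, which is 0.820-fold to 1.22-fold.

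Zfp36, also called tristetraprolin, binds AU-rich elements and speeds the decay of Fos, cytokine and other early mRNAs. It read 2.70, 1.91 and 1.06 on the wild-type arrays and 2.69, 0.589 and 0.753 on the knockout arrays. The genotypes were alike in replicate 1 (-0.01) and the knockout was lower in replicates 2 (-1.70) and 3 (-0.49). The log2 difference was -0.73 (95% interval -2.33 to 0.86 in limma, exact permutation p = 0.4). In replicates 2 and 3 alone it was -1.09 (limma adjusted p = 0.995). Of its relatives, Zfp36l1, which also promotes mRNA decay, averaged 616 ± 239 across wild-type arrays (SD, n = 3) and 658 ± 257 across knockout arrays (SD, n = 3), and Zfp36l2 differed by -0.67 without passing.

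**Figure D2:**
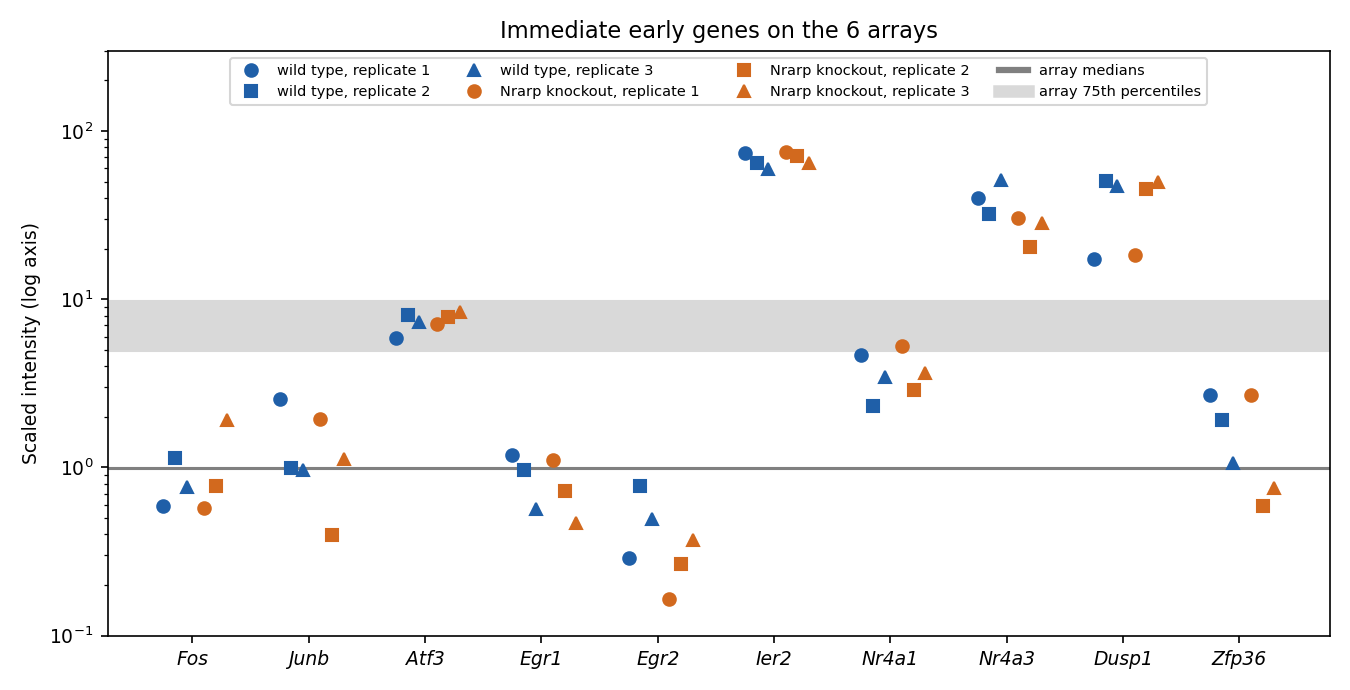
Scaled intensity (log axis) of the 10 genes on each of the 6 arrays, with blue for wild type, orange for the knockout and a symbol for each replicate number. The dark line spans the array medians and the grey band the 75th percentiles. Nr4a3 is the only gene whose colours do not overlap, and the Dusp1 circles (17.4 and 18.2) lie far below its other points. Heights of different genes are not comparable, since probes differ in brightness.

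By position on the array, 5 of the 10 probes (Ier2, Dusp1, Nr4a3, Atf3 and Nr4a1) lay above the median on all 6 arrays and Egr2 below it on all 6. Fos, Junb, Egr1 and Zfp36 crossed the median from array to array. Ier2 ranked between the 92.4th and 93.7th percentile, Nr4a3 between the 85.7th and 91.6th, and Dusp1 between the 80.7th and 91.9th. Fos ranked between the 41.0th and 62.6th. These ranks say how far a probe stands from the dim end of its array, not how abundant its mRNA is relative to another.

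Within replicate numbers, 4 of the 10 genes (Egr1, Egr2, Zfp36 and Nr4a3) were lower in the knockout in all 3 pairs, which held for 10.5% of all probes. Ier2 and Nr4a1 were higher in all 3 pairs, as were 13.2% of all probes. In 1 direction or the other this made 6 of 10, beside 23.7% of all probes. In Ier2 and Zfp36 the difference within replicate 1 was close to 0 (0.02 and -0.01). The labels tie these numbers to no litter, batch or day, and apart from Nr4a3 each of these genes has arrays that reverse the order when matched across numbers.

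**Figure D3:**
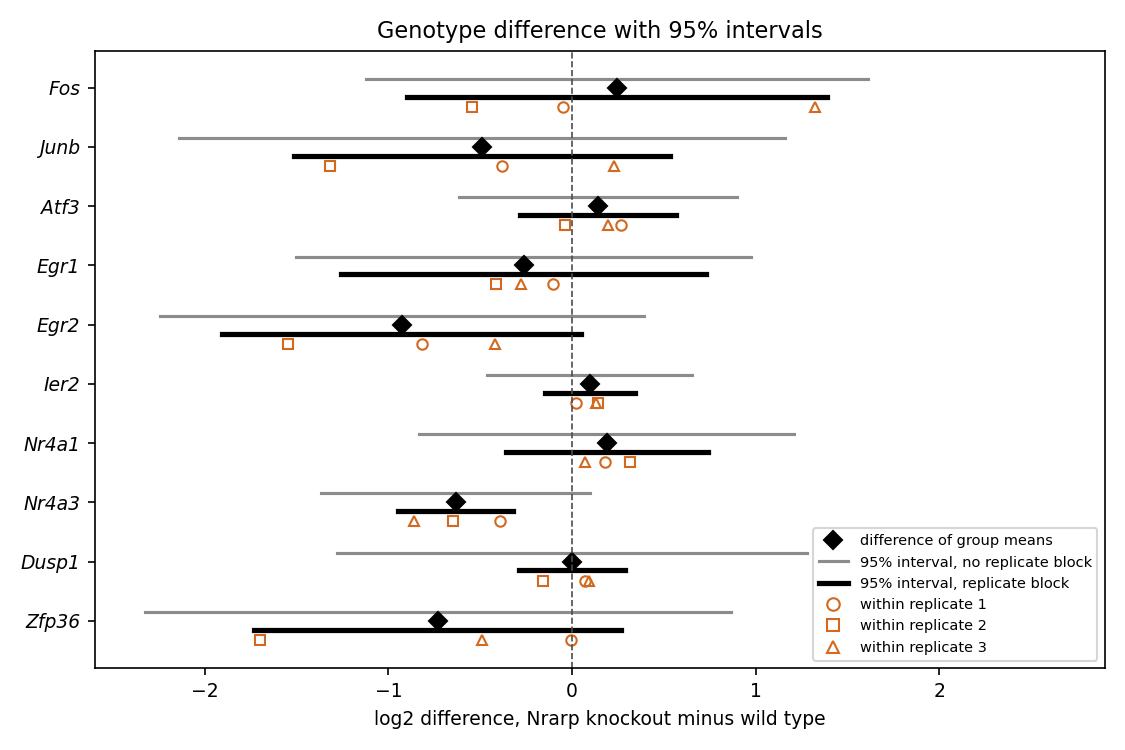
Log2 difference, knockout minus wild type, for the 10 genes: diamonds are differences of group means (n = 3 arrays each), grey and black lines the 95% limma intervals without and with the replicate block, and open symbols the differences within each replicate number. Every grey line crosses 0, and with the block only that of Nr4a3 (-0.95 to -0.32) does not.

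On the deposited scale the replicate 1 arrays differed from the others by more than the genotypes differed in every gene of the set but Nr4a3 (0.16 against -0.63). In 8 of the 10 genes both replicate 1 arrays lay on the same side of all 4 other arrays, as they did for 59.6% of all probes. They were above the others for Junb, Egr1, Zfp36, Nr4a1 and Ier2 (25.2% of all probes) and below them for Fos, Atf3 and Dusp1 (34.4%). The balance was reversed among the 13840 genes with a probe of their own, with 5267 above and 3683 below. Dusp1 was 2.71-fold lower on the replicate 1 arrays, by -1.49 in wild type and -1.38 in the knockout on the log2 scale. Junb was 2.76-fold higher (1.38 and 1.54), and Zfp36 2.77-fold higher (0.93 and 2.01). Over all probes, 42.4% differed by more than 1 log2 unit between these sets of arrays, and of the 10 genes Junb, Zfp36, Dusp1 and Egr2 did.

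These directions depend in part on how arrays are set to one scale. With arrays centred on their 75th percentiles, an alternative chosen after seeing the data, 5 genes were separated and all 5 were lower on replicate 1. Fos, Atf3 and Dusp1 kept their side, Ier2 changed from above to below, and Egr2 became separated, while the median over all probes moved from -0.33 to -1.11. Junb and Zfp36 kept positive differences of 0.69 each, while Ier2 turned to -0.58 and Nr4a1 to -0.07. The order of replicate and genotype differences also depended on it. For Nr4a1 the genotypes differed by 0.24 with this centring, and for Egr1 by -0.21 against a replicate 1 difference of 0.02. For Nr4a3, the exception as deposited, replicate 1 differed by -0.62 with this centring and the genotypes by -0.58. With quantile normalization these Nr4a3 differences were -0.35 and -0.64. After quantile normalization Egr2 differed by -0.98 between genotypes against -0.10 for replicate 1, and Nr4a1 by 0.24 against 0.04. Dusp1 was lower under every scaling tried, at -1.44 as deposited, -2.21 with this centring and -2.05 after quantile normalization. No test was made of replicate number, which the labels tie to no batch, litter or day.

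**Figure D4:**
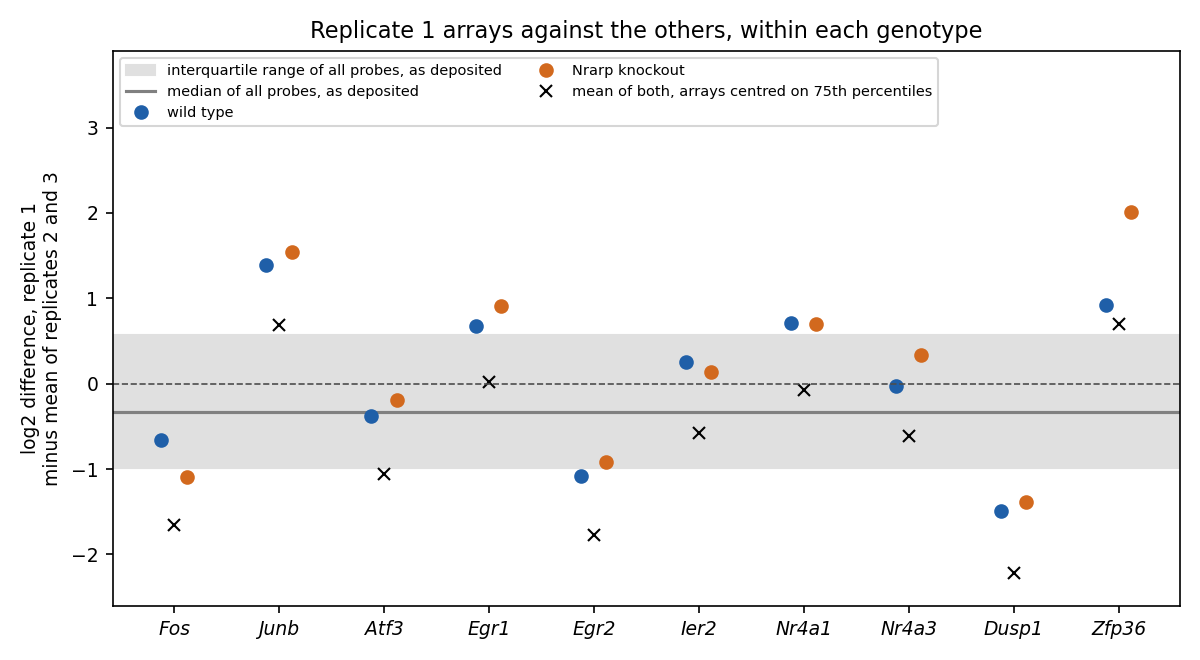
Log2 difference between the replicate 1 array and the mean of replicates 2 and 3 within wild type (blue) and knockout (orange), for the 10 genes. The grey band and line are the interquartile range and median of all probes as deposited, and crosses are the mean of both genotypes after centring arrays on their 75th percentiles. Dusp1 lies at -1.49 and -1.38, and the genotypes lie close together for most genes.

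Of 53 other immediate early genes listed, 46 had a probe of their own, and 0 passed in either limma fit. Their differences were positive for 28 and negative for 18, with a median of 0.04. At an unadjusted p under 0.05 in limma the counts were 0 without the block (0.657% of all probes) and 1 with it (3.75% of all probes). Counts this small among 46 genes cannot be told from those shares. The gene counted with the block was Gadd45g, which encodes a stress sensor and had the smallest p of the list in both fits. It read 48.5, 27.9 and 33.9 on the wild-type arrays and 65.0, 52.8 and 45.4 on the knockout arrays, a log2 difference of 0.59 (limma adjusted p = 0.999 with the block). In the fit without the block the next gene by p, the circadian regulator Per1, was dim and differed by 0.97.

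Of the 24 brighter genes of that list, those above the 75th percentile of all probes, most differed little between genotypes. The serum response factor gene Srf averaged 103 ± 27.7 across wild-type arrays (SD, n = 3) and 100.3 ± 21.5 across knockout arrays (SD, n = 3). Log2 differences were 0.21 for Myc, 0.06 for the antiproliferative Btg2, -0.05 for Klf10, 0.08 for Klf2, 0.05 for the kinase gene Sgk1, 0.02 for Maff and -0.08 for Gadd45a. They were 0.08 for the cytokine brake Socs3, -0.04 for Cebpb, 0.01 for Cebpd, -0.05 for the matricellular Ccn2, 0.12 for the EGF receptor brake Errfi1, 0.11 for Id1 and -0.02 for Rhob. The survival gene Mcl1 differed by -0.08 and the kinase gene Plk2 by 0.00.

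Btg1 and Ccn1 had the larger negative differences among these brighter genes (-0.67 and -0.84), but the replicate 1 arrays dominated both. Btg1 read 59.0, 6.10 and 6.90 on the wild-type arrays and 74.1, 1.60 and 5.203 on the knockout arrays, 15.3-fold higher on replicate 1. Ccn1, a matricellular target of SRF and YAP, read 32.9, 3.45 and 3.69 and then 35.6, 0.774 and 2.67, 15.1-fold higher on replicate 1. In the whole list of 46, both replicate 1 arrays lay above the other 4 for 16 genes (25.2% of all probes) and below them for 13 (34.4%). Of the 13840 genes with a probe of their own, a closer background, 5267 lay above and 3683 below. With 75th-percentile centring the shares over all probes became 14.0% and 60.9%.

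The kinases and factors upstream gave 0 calls as well. Of 10 measured members of the ERK cascade, 5 differences were positive and 5 negative (median -0.03). Map2k2, which encodes the ERK kinase MEK2, averaged 166 ± 10.02 across wild-type arrays (SD, n = 3) and 185 ± 3.81 across knockout arrays (SD, n = 3). Its log2 difference was 0.16 without overlap, beside 3.78% of all probes without overlap in either direction. The RAS activator gene Sos1 differed by -0.76. For 11 kinases of the p38 and JNK cascades the median was -0.00, with Map3k5 at 0.49 and Mapk13 at -0.26. For 12 serum response and CREB factors it was 0.03, with 6 of each sign, the dim SRF cofactor gene Mrtfb at -1.27 and the ternary complex factor gene Elk4 at 0.58.

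The FGF and ERK feedback genes, which report the same pathway over a longer time, had 6 positive and 6 negative differences among 12, with a median of -0.02. Spred2 differed by 0.46 and Il17rd by 0.37, the smallest p-values of that list without the block, and none passed. With the block 2 of 12 had an unadjusted p under 0.05 in limma (3.75% of all probes): Dusp6, an ERK phosphatase gene, at -0.32, and the ETS factor gene Etv5 at 0.86. Etv5 read 13.6, 0.982 and 0.323 on the wild-type arrays and 15.8, 2.14 and 0.762 on the knockout arrays. It was 17.3-fold higher on replicate 1, where its difference was 0.21, and dim on most other arrays. The 8 heat shock and stress genes had 4 of each sign and a median of 0.05, with Dnaja1 at 0.84 and Ddit3 at -0.37. In no list did a gene pass over all probes with or without the block.

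Markers of the tissue itself were present, but several were far brighter on the replicate 1 arrays. All 9 measured presomitic markers of 10 listed lay above the array median on every array, and Tbx6 (606 ± 170 in wild type, SD, n = 3), Dll3 (559 ± 57.9) and Rspo3 (166 ± 36.0) were the brightest. Their differences were 0.23, -0.11 and -0.29, and the summed level of all 9 was 1431 to 1745 in wild type and 1514 to 1693 in the knockout. Hes7 read 54.2, 1.36 and 2.09 on the wild-type arrays and 64.1, 1.63 and 1.19 on the knockout arrays. That is 38.5-fold higher on replicate 1, and Msgn1 was 14.7-fold higher there. Both replicate 1 arrays lay above the other 4 for 5 of the 9 markers (25.2% of all probes) and below them for 2 (34.4%). Of the 13840 genes with a probe of their own, 5267 lay above and 3683 below. Primitive blood markers were also present, with sums of 5781 to 7687 in wild type and 4897 to 7739 in the knockout. Sums were 109 to 129 and 98.4 to 122.9 for 8 endothelial markers, 24.3 to 35.9 and 21.4 to 30.6 for 8 neural tube markers, 162 to 252 and 162 to 257 for 8 surface ectoderm markers, and 36.2 to 64.5 and 35.4 to 60.5 for 8 gut endoderm markers. These ranges overlapped between genotypes in every list. The smallest p-values of the fit without the block belonged to genes of both signs. They were Mesp2 (0.56), a segment border factor, and Rspo3 in presomitic mesoderm, Sox1 (0.65) and Neurog1 (-0.49) in neural tube, and Alas2 (-0.25) and Klf1 (-0.45) in blood. In endothelium they were Kdr (-0.26) and Cdh5 (-0.27), in surface ectoderm the keratin genes Krt15 (-0.77) and Krt14 (0.36), and in gut endoderm Apoa1 (-1.72) and Foxa2 (-0.60). None passed in either fit. Krt14 and Krt5, also at 0.36, were higher in the knockout without overlap, and Rspo3 was lower without overlap. Groups did not overlap for 3.78% of all probes in either direction, and for 1.74% with the knockout lower.

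**Figure D5:**
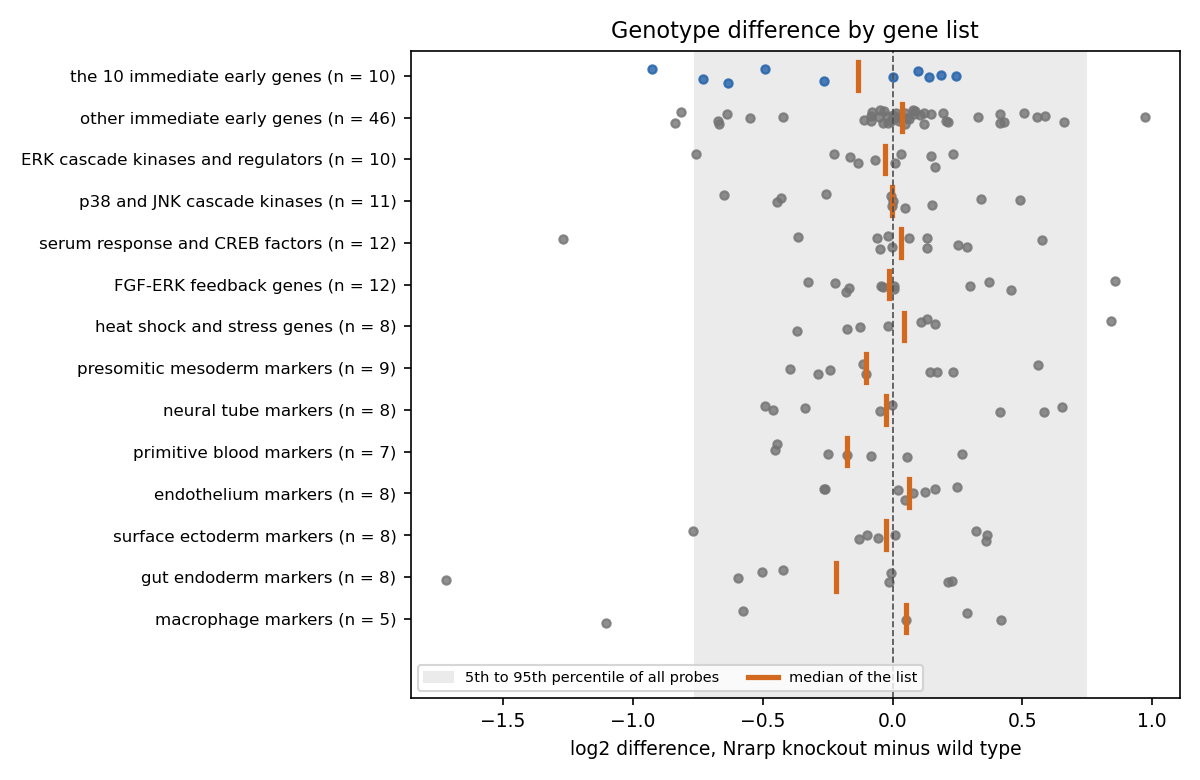
Log2 difference, knockout minus wild type, of each measured gene by list (points, n in the row labels), with the median of each list in orange and the 5th to 95th percentile of all probes in grey. The 10 immediate early genes (blue) have a median of -0.13 and run from -0.93 to 0.24.

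The genes nearest to Fos in profile over the 6 arrays were not immediate early genes of the set. Likeness was the root mean square difference between log2 profiles, each centred on its own mean, among 8650 genes above the median level. The nearest were Cavin4 (0.154), Avil (0.163), Zfp385b (0.171), Ptgfr (0.186) and Pde6a (0.194). Each of them, like Fos, was highest on knockout replicate 3, which largely follows from choosing them by likeness to Fos on these arrays. Of the other 9 members Dusp1 (0.480) and Atf3 (0.488) were closest to Fos and Zfp36 (1.29) and Junb (1.18) farthest, at places 927, 1027, 6429 and 5920 in the same ordering. With quantile normalization 2 of the 5 nearest genes remained (Cavin4 and Avil). The order of members changed as well, with Atf3 (0.541) at place 1317 and Dusp1 (0.826) at place 4839. All arrays share platform, tissue and scaling, and Fos is dim, so this ordering describes 6 values and no more.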

How the data were processed

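Per the labels' protocols, RNA labelled with digoxigenin was read on one-colour arrays made by Applied Biosystems. A human array is named in the descriptions, but organism and probe annotation are mouse. The deposited intensity values are linear and were scaled by the authors to array medians just under 1; how background was removed, and any flag or filter, is not given in the sources. Of 33012 probes, 14411 had 1 gene symbol, 247 several and 18354 were unnamed here.

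Intensities were converted to log2 with no offset or filter and tested in limma 3.58.1 (R 4.3.3; a genotype term, two-sided moderated test with a variance trend on intensity, Benjamini-Hochberg over all probes, threshold 0.05). Single genes also had an exact two-sided permutation test. Intervals are at 95%. The fits were tested on simulated data. Figures used Python 3.11.15 and matplotlib 3.10.9.

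Replicate numbers occur in both genotypes. Deviations from group means correlated by 0.757, 0.442 and 0.374 within numbers 1, 2 and 3. By the rule of every pair above 0.1 the arrays counted as paired by number, and a fit with a block for replicate number was added. The main limma fit and the permutation tests were unpaired. Across numbers 2 and 3 the correlations were 0.397 and 0.419. With replicate 1 apart, numbers 2 and 3 correlate whichever way they are matched, so this rule cannot tell matched from swapped. The pairing of number 1 comes from these values, and that of numbers 2 and 3 is an assumption of the block. The labels give neither.

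The members and gene lists were chosen with earlier results of these data known. All 10 members are named. Of other lists, those that pass or have the 2 smallest p are named, and of the other immediate early genes also those above the 75th percentile, besides the 5 nearest to Fos, Nrarp and the 3 brightest presomitic markers. Relatives of members were named outside this rule, as were markers given beside Nr4a3.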

Additional observations from a re-analysis of the deposited data

How the results depend on the processing

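The count of 0 of the 10 genes past the threshold held under all alternatives that give a test: the replicate block with and without an intensity trend, centring on 75th percentiles, quantile normalization, an offset of 1, a filter that kept 7 of the 10 genes, array weights, a prior without trend, replicates 2 and 3 alone, and each array left out (0 to 0). Each gene has 1 probe, so averaging probes changes nothing and was not run. The count over all probes was 0, but 2 with the replicate block, 2 in replicates 2 and 3 alone and 1 with array weights; with arrays left out it was 0 to 0. At an unadjusted p under 0.05 the count of all probes was 217, and 47 with centring on 75th percentiles, 529 with quantile normalization, 1238 with the replicate block, 1492 with the block and no trend, 1407 in replicates 2 and 3, 3145 with array weights, 419 without wild-type replicate 1 and 993 without knockout replicate 1. The replicate block changed no adjusted call among the 10 genes. At an unadjusted limma p under 0.05, Nr4a3 alone counted with the block (3.75% of all probes), array weights (9.53%) and replicates 2 and 3 (4.26%). Egr2 alone counted with quantile normalization (1.60%), and Egr2 and Nr4a3 with the block and no trend (4.52%). Zfp36 alone counted without knockout replicate 1 (3.01%). Differences of Atf3, Egr2, Ier2, Nr4a3 and Zfp36 kept their sign under every alternative run, but not their size: with arrays left out they ran from 0.014 to 0.24, -1.29 to -0.58, 0.024 to 0.18, -0.80 to -0.46 and -1.40 to -0.31, and over all alternatives Egr2 reached -0.25 and Zfp36 -0.0075. That of Dusp1, at -0.00, turned to 0.053 with centring on 75th percentiles, 0.093 with array weights and 0.068 in replicate 1, and lay between -0.50 and 0.46 with arrays left out. Fos was -0.049 in replicate 1 and -0.26 to 0.61 with arrays left out. The other ranges with arrays left out were -1.01 to 0.14 for Junb, -0.57 to 0.045 for Egr1 and -0.074 to 0.43 for Nr4a1. Replicate 1 was separated in 8 genes as deposited, in 5 with centring (3 of them as before) and in 5 with quantile normalization, both chosen after seeing the data, and 2 of the 5 genes nearest to Fos remained with quantile normalization and 5 with centring, which cannot alter this measure. The cause of these shifts was not tested. The number of arrays limits the precision throughout, and how background was handled is unknown.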

Other observations

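Of the listed genes, 8 have more than 1 probe, and how far replicate 1 stood from the other arrays varied between probes of a gene. Klf2 (1.37-fold and 1.65-fold higher), Creb1 (1.62-fold, 1.62-fold and 3.02-fold higher) and Mapk10 (0.4504-fold and 0.742-fold) had probes on 1 side, as did Ptpn11, with 11.4-fold and 1.18-fold. Grhl2 had probes on both sides (2.84-fold and 0.756-fold), as did Cebpb. Rhob, Hspd1 and Cebpb were chosen after their values were seen. For Rhob, a small GTPase of the early growth factor response, the brighter probe read 68.1, 35.4 and 38.6 on the wild-type arrays and 77.8, 30.9 and 36.9 on the knockout arrays, 2.06-fold higher on replicate 1. The dimmer Rhob probe read 15.9, 0.440 and 0.831 and then 20.2, 0.323 and 0.469, 37.0-fold higher. For Hspd1, a mitochondrial chaperone gene, 3 probes were 1.93-fold, 3.50-fold and 11.4-fold higher on replicate 1, in order of falling brightness. For Cebpb the brighter probe was lower on replicate 1 (log2 -0.66) and the dimmer one higher (1.93). Genotype differences of these probes were smaller, at -0.02 and -0.31 for Rhob and -0.17, -0.33 and -0.63 for Hspd1, and none passed in limma (adjusted p = 1.00 for each without the block).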
